A study of Mus musculus with 4 samples.

Results

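The expression of 10 genes of glucose uptake and insulin signaling was followed in p53-mutant mouse sarcomas with and without ATO treatment. They are 5 glucose transporters (Slc2a1, Slc2a3, Slc2a4, Slc2a8 and Slc2a12), the insulin receptor Insr with its substrates Irs1 and Irs2, the vesicle traffic regulator Tbc1d4, and Txnip. They were taken by gene symbol from the 56691 genes of the deposited table, and they were chosen by their counts and FPKM in the same ATO and Ctl sarcomas, so that their differences between the groups are a description and carry no test. RNA-seq was performed on 4 sarcomas of mice labelled p53R282W/+, a genotype named after the human residue. ATO 1 and ATO 2 came from mice given arsenic trioxide (ATO) in drinking water from young adulthood until death, and Ctl 1 and Ctl 2 from mice whose labels name PBS. The mice were C57BL/6N heterozygotes made by CRISPR/Cas9, so that every sarcoma, Ctl included, carried a germline mutant allele. Their sarcomas arose spontaneously and included angiosarcomas, soft tissue sarcomas and osteosarcomas, but the labels do not give the type of the 4 sequenced here, nor their site, nor the age or sex of each mouse. The labels of all 4 samples, ATO and Ctl alike, also describe a cell culture medium that contained insulin, dexamethasone and isobutylmethylxanthine. No such culture is described in the methods for tumor tissue, and its part in these values was not tested. Nothing in the labels says that the 4 sarcomas came from 4 different mice, and p-values measure only the spread between these samples.

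Glucose enters cells through the Slc2a family of facilitative transporters. Glut1, the product of Slc2a1, serves basal uptake in most cells. Glut4, the product of Slc2a4, belongs to skeletal muscle, heart and fat, where it waits in vesicles inside the cell until insulin is bound by its receptor. The receptor phosphorylates Irs1 and Irs2, these recruit PI3K, and PI3K activates Akt. Akt then phosphorylates the Rab-GTPase-activating protein Tbc1d4 (AS160), which releases its hold on the vesicles, and Glut4 moves to the cell surface. Txnip, an arrestin-like protein that also binds thioredoxin, limits glucose uptake, and its gene is switched on by glucose itself.

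Each library held 15259695 to 18134000 counts. A gene at 0 counts could have had up to 3, which is 0.165 to 0.197 CPM (the count scaled to a common library total), counting error only. Levels are given as FPKM, the count scaled by exonic length and by library total, and as CPM with TMM scaling, which corrects for a few genes taking many reads. Averages with SD and the edgeR fits use TMM scaling unless stated. The marker sums, transporter shares and many values of single sarcomas are FPKM, without TMM scaling. The TMM factor was 0.822 in ATO 2 against 1.01 to 1.11 in the others, so that ATO 2 reads lower by FPKM than by CPM. ATO 2 stood apart with 14.7% of its counts in mitochondrial genes, against 1.98% to 2.59% in the others. By edgeR's quasi-likelihood test with Benjamini-Hochberg adjustment, 0 of the 17188 genes tested passed an adjusted p of 0.05, that is 0%, while 1463 had an unadjusted p under 0.05 (8.51%) and DESeq2 called 753 of the 18295 genes to which it gave an adjusted p (4.12%). All 10 members passed the filter on low counts. By CPM, 7 of them were higher in each ATO sarcoma than in either Ctl sarcoma, as were 19.7% of all genes tested, and 0 were lower in each, as were 20.2% of all genes. By FPKM the numbers were 5 and 0, against 12.8% and 29.6% of all genes. Since the contrast chose the members, nothing is read from these counts.

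**Figure D1:**
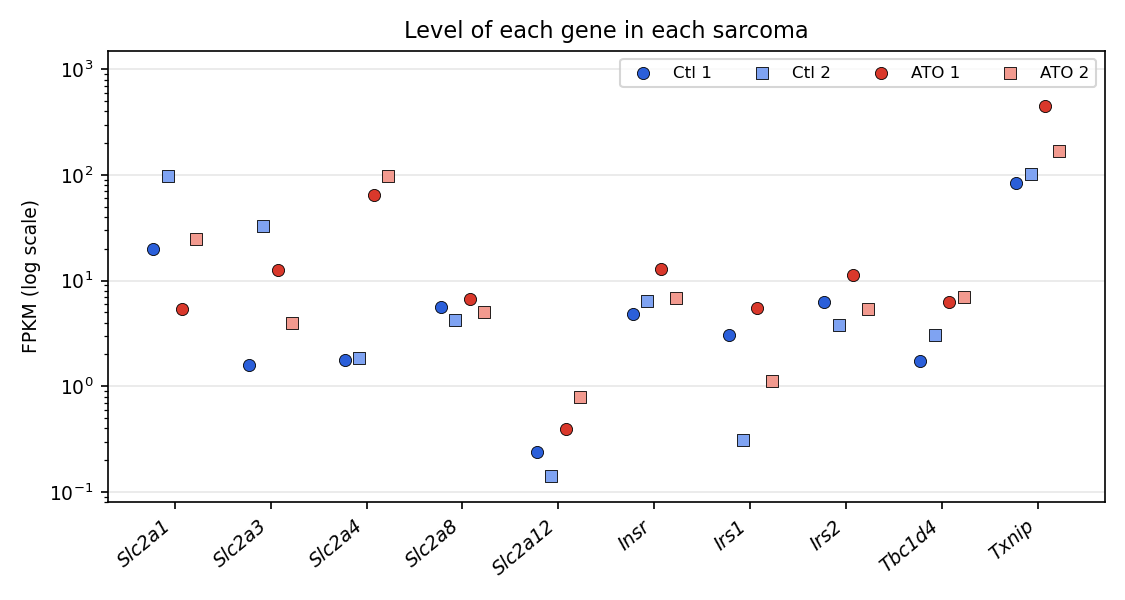
Level of the 10 genes in each sarcoma as FPKM on a log scale, with Ctl sarcomas in blue and ATO sarcomas in red, and the first of each group as a circle and the other as a square. Slc2a4 shows the widest gap between the groups, with 1.78 and 1.87 in Ctl against 64.9 and 98.5 in ATO, whereas the points of Slc2a1, Slc2a3 and Irs1 from both groups are interleaved.

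Slc2a4 (ENSMUSG00000018566; chromosome 11 of GRCm38, 69942539 to 69948188, minus strand) was scarce in both Ctl sarcomas and the leading glucose transporter in both ATO sarcomas. It had 108 counts in Ctl 1 and 117 in Ctl 2, against 4094 in ATO 1 and 5229 in ATO 2. The FPKM was 1.78 and 1.87 in Ctl against 64.9 and 98.5 in ATO, so that the groups lay far apart and the 2 Ctl sarcomas were nearly equal. Among all genes tested, Slc2a4 stood at percentile 32.2 and 31.8 of FPKM in Ctl, and at 96.8 and 97.6 in ATO. The CPM averaged 5.79 ± 0.152 (SD, n = 2) in Ctl against 322 ± 137 (SD, n = 2) in ATO, and the fitted log2 change was 5.80 (SE 0.60), which stayed between 5.29 and 6.16 with each sarcoma left out. In bulk tissue, more cells of a type and more RNA per cell cannot be told apart.

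Markers of fat and skeletal muscle, tissues that normally hold Glut4, were also higher in the ATO sarcomas, while those of heart were low in both groups. All 6 adipocyte markers were higher in each ATO sarcoma than in either Ctl sarcoma, by CPM and by FPKM. Over all genes tested, 19.7% by CPM and 12.8% by FPKM were so. The summed FPKM of the adipocyte markers was 13.6 and 72.7 in Ctl against 236.8 and 1401 in ATO. Fabp4 made up most of each of these sums, with 12.6 and 66.1 in Ctl against 154.8 and 809.1 in ATO. Among the defining fat genes, Adipoq had an FPKM value of 0.08 in each Ctl sarcoma, Plin1 was at 0 in Ctl 1 and 0.01 in Ctl 2, and Lep was at 0 in both. All 8 skeletal muscle markers did the same, with a summed FPKM of 5.05 and 113.6 in Ctl against 12438 and 958.5 in ATO, and Tnnc2 was at 0 in Ctl 1. Cardiac muscle markers were near 0 throughout, with a summed FPKM between 1.15 and 2.25. ATO 1 was thus rich in muscle genes and ATO 2 in fat genes, while Slc2a4 was 1.86 times as high in ATO 2 as in ATO 1 by CPM. Between the 2 Ctl sarcomas the fat and muscle sums differed, while Slc2a4 was nearly equal (FPKM 1.78 and 1.87). These marker lists were chosen with earlier results of these data known, and the part of fat and muscle in the level of Slc2a4 was not tested.

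**Figure D2:**
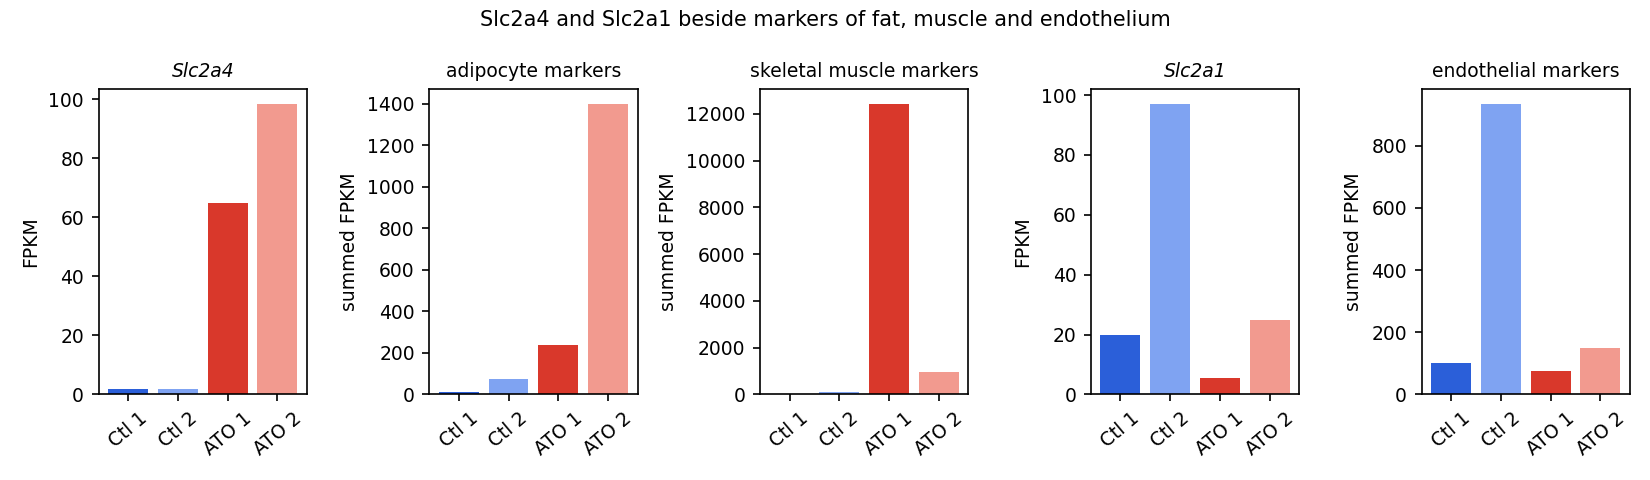
FPKM of Slc2a4 and Slc2a1 in each sarcoma beside the summed FPKM of 6 adipocyte, 8 skeletal muscle and 5 endothelial markers, each bar being 1 sarcoma. Slc2a4 and both sets of fat and muscle markers are high in the ATO sarcomas, with muscle highest in ATO 1 (12438) and fat highest in ATO 2 (1401), whereas Slc2a1 and the endothelial markers are highest in Ctl 2.

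The make-up of the glucose transporter transcripts differed between the groups in its leading gene. Summed over the 12 Slc2a genes followed, the FPKM was 40.2 in Ctl 1 and 159.5 in Ctl 2, against 99.7 in ATO 1 and 149.5 in ATO 2, so that the sums of the groups overlapped. Slc2a1 made up 49.3% of the sum in Ctl 1 and 60.9% in Ctl 2, but 5.37% in ATO 1 and 16.6% in ATO 2. Slc2a4 held 65.1% and 65.9% in the ATO sarcomas, against 4.43% and 1.17% in Ctl. The FPKM of Slc2a4 was 12.1 times that of Slc2a1 in ATO 1 and 3.97 times in ATO 2, and 0.0897 and 0.0192 times in Ctl 1 and Ctl 2.

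**Figure D3:**
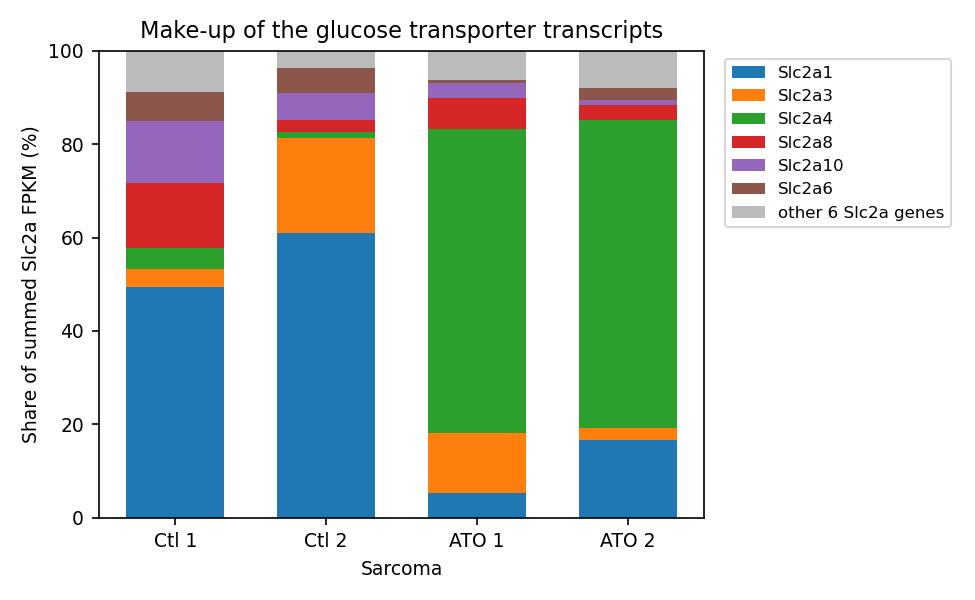
Share of each glucose transporter in the summed FPKM of 12 Slc2a genes, with 1 bar for each sarcoma. Slc2a1 is the largest part of both Ctl bars (49.3% and 60.9%) and Slc2a4 of both ATO bars (65.1% and 65.9%).

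Slc2a1 itself (ENSMUSG00000028645; chromosome 4 of GRCm38, 119108711 to 119137983, plus strand) did not separate the groups. Its FPKM was 19.8 in Ctl 1 and 97.2 in Ctl 2, against 5.35 in ATO 1 and 24.8 in ATO 2. Ctl 2 was by far the highest and ATO 1 the lowest, but ATO 2 lay above Ctl 1. The CPM averaged 186 ± 173 (SD, n = 2) in Ctl against 62.5 ± 62.0 (SD, n = 2) in ATO, and the fitted log2 change was -1.58 (SE 1.14). Without Ctl 2 it was -0.038, and without ATO 2 it was -3.30. The sum of 5 endothelial markers had the same order as Slc2a1 over the 4 sarcomas, with FPKM totals of 74.2 in ATO 1, 102.0 in Ctl 1, 150.5 in ATO 2 and 935.3 in Ctl 2. All 5 markers were highest in Ctl 2, but Pecam1 (28.0 in Ctl 1 and 29.1 in ATO 1) and Tek (3.88 and 8.18) were lowest in Ctl 1 and not in ATO 1. This list was picked from 9 marker lists after their values were seen, and its part in the level of Slc2a1 was not tested.

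Slc2a3 (ENSMUSG00000003153; chromosome 6 of GRCm38, 122727809 to 122801640, minus strand) encodes Glut3, a transporter of high affinity best known from neurons. Its FPKM was 1.60 in Ctl 1 and 32.6 in Ctl 2, against 12.7 in ATO 1 and 3.93 in ATO 2, so that the Ctl sarcomas held both the lowest and the highest value. They differed 20.2 times from each other by CPM. The log2 fold change of -0.83 (SE 1.36) turned to 2.57 without Ctl 2 and to 0.24 with the replicate number as a block. Erythroid markers, again picked after their values were seen, had the same order, with a summed FPKM of 298.1 in Ctl 1, 1127 in ATO 2, 10913 in ATO 1 and 19827 in Ctl 2, and their part was not tested.

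Slc2a8 stood near the middle of all genes, between percentile 48.3 and 60.3 of FPKM, and Slc2a12 was low. Slc2a8 (chromosome 2 of GRCm38, 32972990 to 32982083, minus strand) encodes Glut8, a transporter kept mostly inside the cell, and had FPKM values of 5.60 and 4.25 in Ctl against 6.68 and 5.0 in ATO. By CPM the groups did not overlap, with a fitted log2 change of 0.51 (SE 0.44), but by FPKM ATO 2 lay below Ctl 1. Slc2a12 (chromosome 10 of GRCm38, 22645011 to 22704285, plus strand) encodes Glut12, which like Glut4 is found in insulin-sensitive tissue. It had 18 and 11 counts in Ctl against 30 and 52 in ATO, an FPKM between 0.14 and 0.80, so that it was the ninth of the 12 transporters in every sarcoma. The groups did not overlap, and the log2 fold change was 1.94 (SE 0.84), down to 1.13 without ATO 2 and to 0.41 on log2(FPKM + 1), a scale that understates changes of low genes.

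Insr and Irs2 differed between the groups by far less than Slc2a4, and Irs1 did not separate them. Insr (ENSMUSG00000005534; chromosome 8 of GRCm38, 3122061 to 3279617, minus strand) had FPKM levels of 4.82 in Ctl 1 and 6.37 in Ctl 2, against 13.0 in ATO 1 and 6.87 in ATO 2. ATO 1 stood above the rest, and ATO 2 was close to Ctl 2 on this scale, while by CPM it had 115.5 against 79.3 in Ctl 2. The CPM averaged 70.1 ± 13.1 (SD, n = 2) in Ctl against 147 ± 44.3 (SD, n = 2) in ATO, and the fitted log2 change was 1.07 (SE 0.43), and 0.70 without ATO 1. The FPKM of Insr was 1.18 and 1.45 times that of Igf1r, the closely related receptor of insulin-like growth factors, in Ctl 2 and Ctl 1, and 2.42 and 2.97 times in ATO 1 and ATO 2.

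Irs2 (ENSMUSG00000038894; chromosome 8 of GRCm38, 10984681 to 11008458, minus strand) had FPKM values of 6.23 and 3.84 in Ctl against 11.2 and 5.39 in ATO, with a fitted log2 change of 0.95 (SE 0.50) that was 0.50 without ATO 1. By CPM the groups did not overlap, while by FPKM ATO 2 lay below Ctl 1. Irs1 (ENSMUSG00000055980; chromosome 1 of GRCm38, 82233101 to 82291416, minus strand) had 484 counts in Ctl 1 and 51 in Ctl 2, against 907 in ATO 1 and 156 in ATO 2, so that 1 sarcoma of each group was high. Its log2 fold change of 1.15 (SE 1.25) ranged from -0.19 without ATO 1 to 3.60 without Ctl 1. Irs2 outnumbered Irs1 in all 4 sarcomas, with a ratio of FPKM of 2.06 in Ctl 1 and 12.4 in Ctl 2, against 2.05 in ATO 1 and 4.81 in ATO 2. Among 6 mesenchymal and fibroblast markers, picked after their values were seen, Col1a1 was likewise high in Ctl 1 (FPKM 2276) and ATO 1 (2413) and lower in Ctl 2 (273.3) and ATO 2 (315.1), and Col1a2 had the same split. Vim and Col3a1 did not follow it, both being lowest in ATO 1 (130.5 and 50.3), and the median FPKM of the list was 656.4 and 160.8 in Ctl, then 90.4 in ATO 1 and 225.0 in ATO 2. Pdgfra had the split of Col1a1, while Pdgfrb did not (98.6 and 70.8 in Ctl against 36.2 in ATO 1 and 23.7 in ATO 2). Of the osteoblast markers, Runx2 had it (10.2 in Ctl 1, 13.1 in ATO 1, 2.92 in Ctl 2, 1.01 in ATO 2). Their summed FPKM was high in ATO 1 alone (464.9, against at most 12.7 elsewhere). The part of fibroblasts or osteoblasts in the level of Irs1 was not tested.

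Tbc1d4 (ENSMUSG00000033083; chromosome 14 of GRCm38, 101442360 to 101609191, minus strand) had FPKM levels of 1.74 in Ctl 1 and 3.07 in Ctl 2, against 6.26 in ATO 1 and 7.0 in ATO 2. The ATO sarcomas were similar to each other, and the groups did not overlap on either scale. The CPM averaged 16.8 ± 6.41 (SD, n = 2) in Ctl against 56.8 ± 12.6 (SD, n = 2) in ATO, and the fitted log2 change was 1.76 (SE 0.48), which stayed between 1.41 and 2.21 with each sarcoma left out. Its paralog Tbc1d1, the form that prevails in fast muscle, was 8.06 and 12.6 in Ctl against 14.9 and 4.40 in ATO, so that Tbc1d4 exceeded Tbc1d1 in ATO 2 alone, by 1.59 times.

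**Figure D4:**
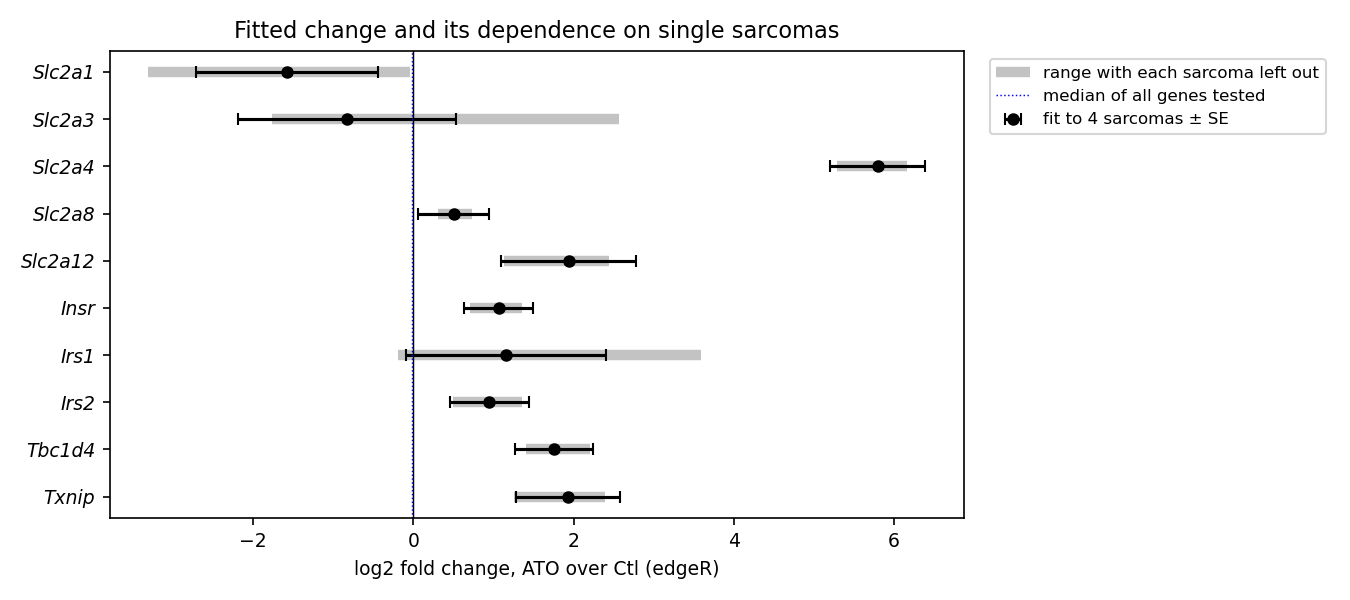
Fitted log2 fold change of ATO over Ctl for each of the 10 genes (points, with bars of 1 SE) and its range when each sarcoma is left out in turn (grey). The ranges of Slc2a3 and Irs1 cross 0 and that of Slc2a1 reaches -0.038, while those of the other 7 genes stay above 0, with Slc2a4 at 5.80.

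Txnip (ENSMUSG00000038393; chromosome 3 of GRCm38, 96557957 to 96561883, plus strand) had the highest FPKM of the 10 genes in all 4 sarcomas, between percentile 97.4 and 99.7 of the genes tested. It had 4597 counts in Ctl 1 and 5764 in Ctl 2, against 25312 in ATO 1 and 8029 in ATO 2. The FPKM was 84.3 and 102.7 in Ctl against 446.9 and 168.5 in ATO, without overlap, and ATO 1 was the highest. The CPM averaged 266 ± 34.4 (SD, n = 2) in Ctl against 1017 ± 528 (SD, n = 2) in ATO, and the fitted log2 change was 1.93 (SE 0.65), and 1.26 without ATO 1. Its paralog Arrdc4, an arrestin-like protein induced by glucose in the same way, had FPKM values of 5.39 and 9.20 in Ctl against 57.3 and 11.2 in ATO, also highest in ATO 1.

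The windows from 250 bases before to 50 bases after the transcription start, as given by RefSeq for GRCm38.p6, were at hand for 7 of the 10 genes and not for Slc2a3, Slc2a4 or Insr. They are shown for Txnip, whose promoter is known to read glucose, and for the pair of insulin receptor substrates and Slc2a1. Capitals mark matches on either strand to 6 patterns. The E-box of bHLH factors was searched as CACGTG. The box bound by the trimeric factor NF-Y was searched as CCAAT. The site of FOXO factors was searched for with the letters GTAAACA. The box near many start sites that binds the TATA-binding protein was looked for as TATAAA. The GC box, bound by Sp1 and its relatives, was read as GGGCGG. The carbohydrate response element was taken as CACGNG, then 5 bases of any kind, then the same letters again. That last pattern was chosen with the Txnip sequence in view, and it could overlap CACGTG.
Txnip, chr3:96557707-96558006, plus strand: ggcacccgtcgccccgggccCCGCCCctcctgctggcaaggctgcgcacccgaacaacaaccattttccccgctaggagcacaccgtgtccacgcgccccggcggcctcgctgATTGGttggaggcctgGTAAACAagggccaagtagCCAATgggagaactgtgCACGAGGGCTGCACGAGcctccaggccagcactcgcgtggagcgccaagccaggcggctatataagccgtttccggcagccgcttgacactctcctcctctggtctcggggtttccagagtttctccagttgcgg
Irs1, chr1:82291390-82291689, minus strand: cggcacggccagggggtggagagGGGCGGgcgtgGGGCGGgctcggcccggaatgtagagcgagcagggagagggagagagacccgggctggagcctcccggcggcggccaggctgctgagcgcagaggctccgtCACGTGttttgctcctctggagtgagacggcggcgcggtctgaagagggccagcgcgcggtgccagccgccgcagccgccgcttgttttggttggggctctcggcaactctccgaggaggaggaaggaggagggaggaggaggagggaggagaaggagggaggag
Irs2, chr8:11008880-11009179, minus strand: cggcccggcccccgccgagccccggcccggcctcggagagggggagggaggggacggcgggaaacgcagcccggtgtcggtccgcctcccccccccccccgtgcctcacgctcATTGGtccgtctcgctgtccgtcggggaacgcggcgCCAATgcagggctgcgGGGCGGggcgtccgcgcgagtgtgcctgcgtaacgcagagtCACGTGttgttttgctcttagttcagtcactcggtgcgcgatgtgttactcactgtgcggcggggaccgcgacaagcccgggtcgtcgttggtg
Slc2a1, chr4:119108495-119108794, plus strand: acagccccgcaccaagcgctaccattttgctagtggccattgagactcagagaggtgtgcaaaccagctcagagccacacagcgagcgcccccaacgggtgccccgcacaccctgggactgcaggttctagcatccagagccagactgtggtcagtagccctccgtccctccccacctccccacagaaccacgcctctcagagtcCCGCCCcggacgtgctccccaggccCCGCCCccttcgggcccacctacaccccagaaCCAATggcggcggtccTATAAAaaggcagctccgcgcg
The Txnip window held the carbohydrate response element pattern from 85 bases before the start and GTAAACA from 121 bases before it. It also held 2 CCAAT boxes and 1 GC box. The carbohydrate response element pattern was found in 16 of all 32851 windows (0.0487%), GTAAACA in 3.65%, CCAAT in 37.4% and the GC box in 35.7%. The windows of Irs1 and Irs2 each held 1 CACGTG, 115 and 44 bases before the RefSeq start, which 7.15% of all windows had. That of Irs1 also held 2 GC boxes, and that of Irs2 held 2 CCAAT boxes and 1 GC box. The Irs2 window lies wholly outside the gene as placed by GENCODE M21, which starts at 11008458 on the minus strand. The distance of 44 bases thus holds for the RefSeq start alone. The Slc2a1 window held 2 GC boxes (35.7% of windows), and, after the start, 1 CCAAT from base 13 and 1 TATAAA (13.6%) from base 29, counting the start as base 1. The windows of Slc2a8 held 5 CCAAT, that of Tbc1d4 1 GC box and that of Slc2a12 none of the 6 patterns. Matches are letters in a window and were not tested as sites.

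Whether reads were counted by strand is not given in the sources used here, and exons of 5 members overlap a gene on the opposite strand in the GENCODE M21 annotation, so that their values are uncertain. The overlapping exons covered 2822 bases for Irs1 with Gm9747, 606 for Txnip with Gm15441, 407 for Slc2a12 with Tbpl1, 162 for Irs2 with 9530052E02Rik and 105 for Slc2a1 with Gm12868. Gm9747 had 0 counts in all 4 sarcomas, and Gm15441 an FPKM between 0.13 and 0.82. For Slc2a12, the overlapping Tbpl1 had an FPKM between 7.07 and 12.3, well above Slc2a12 itself.

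Beyond the members, 74 genes of 6 lists on glucose uptake and insulin action were examined, of which 69 were tested. Of these, 0 passed an adjusted p of 0.05 by edgeR, 8 had an unadjusted p under 0.05 (8.51% over all genes) and DESeq2 called 2, among them Mlxipl (4.12% over all genes). Without overlap between the groups by CPM, ATO was higher in 18 of the 69 (19.7% over all genes) and lower in 9 (20.2% over all genes). By FPKM the numbers turned to 12 and 17, beside 12.8% and 29.6% over all genes. The median log2 fold change was 0.11, against -0.016 over all genes tested, and 1.11 over the 10 members.

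Of the other 7 glucose transporters, Slc2a2, Slc2a5 and Slc2a7 were too low to test. Slc2a5, the fructose transporter Glut5, had 8 and 0 counts in Ctl, 10 in ATO 1 and 447 in ATO 2, where it was the third of the transporters by FPKM. Slc2a10, which encodes Glut10, had FPKM values of 5.31 and 9.13 in Ctl against 3.17 and 1.62 in ATO, and the fitted log2 change was -1.36 (SE 0.55, edgeR adjusted p 0.592). Slc2a6 had -1.01 (SE 1.18), and Slc2a9, the urate carrier, 0.76 (SE 0.59). The median of the 4 tested was -0.81, and -0.029 without Ctl 2.

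The relay from the receptor to Akt and mTOR held 22 tested genes, 12 with a positive and 10 with a negative fitted change, and a median of 0.10 that was -0.30 without ATO 1. Akt2, the Akt form required for insulin action on Glut4, had FPKM values of 14.6 and 10.5 in Ctl against 31.4 and 32.5 in ATO. The fitted log2 change was 1.63 (SE 0.44, edgeR adjusted p 0.570 and DESeq2 adjusted p 0.120). Sh2b2, an adaptor that binds the insulin receptor, was 4.20 and 8.01 in Ctl, 3.08 in ATO 1 and 26.2 in ATO 2, with overlap between the groups. Shc1 and Pik3r2, adaptors of growth factor signaling and a regulatory subunit of PI3K, had fitted changes of -1.05 and -0.67, with the highest FPKM in Ctl 1 (78.6 and 37.7).

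Among 11 inhibitors of the insulin signal, 4 had a positive and 7 a negative fitted change, with a median of -0.24 that turned positive without ATO 1 and without Ctl 2. Grb10 and Grb14, related adaptors that both bind the activated insulin receptor and dampen it, had fitted changes of opposite sign. Grb10 had FPKM values of 37.3 and 29.7 in Ctl against 9.57 and 7.04 in ATO, and the fitted log2 change was -1.75 (SE 0.42, edgeR adjusted p 0.570 and DESeq2 adjusted p 0.0593). Grb14 had 0.52 and 0.15 in Ctl against 1.07 and 2.71 in ATO, and the fitted log2 change was 2.84 (SE 1.00, edgeR adjusted p 0.570 and DESeq2 adjusted p 0.0837). Trib3, a pseudokinase that binds Akt, had -1.17 (SE 0.64), and the lipid phosphatase gene Inppl1 0.44 (SE 0.38).

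Of 19 genes of Glut4 vesicle traffic, 10 had a positive and 9 a negative fitted change, none beyond 1.32 in size, with a median of 0.11. By CPM, 4 were higher and 2 lower in ATO without overlap, as were 19.7% and 20.2% of all genes tested. By FPKM the numbers were 2 and 5, beside 12.8% and 29.6% of all genes. Sort1, which encodes sortilin, a sorting receptor of Glut4 vesicles, had FPKM values of 9.13 and 7.31 in Ctl against 13.7 and 19.5 in ATO, and the fitted log2 change was 1.32 (SE 0.46, edgeR adjusted p 0.570). Rhoq, the small GTPase TC10, had 0.90 (SE 0.48). The lowest values were -0.45 for Rac1 and -0.44 for Rab13.

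Among the partners and sensors around Txnip, 7 of 9 genes had a positive fitted change, with a median of 0.86 that was 0.23 without ATO 1 and 0.38 without Ctl 1. Mlxipl encodes ChREBP, the glucose-sensing transcription factor of liver and fat, and had 3 counts in Ctl 1 and 25 in Ctl 2, against 298 in ATO 1 and 6147 in ATO 2. Its DESeq2 adjusted p was 1.09e-06 and its edgeR adjusted p 0.570. Mlxip, the related factor MondoA, had a CPM of 71.2 and 68.6 in Ctl against 216.6 and 79.6 in ATO, without overlap, while by FPKM ATO 2 (7.82) lay below Ctl 1 (9.31) and Ctl 2 (9.10). Arrdc2 had its highest FPKM in ATO 1 (43.2, against 3.37 to 6.13 in the other sarcomas). Txn1 and Txnrd1, thioredoxin and its reductase, had fitted changes of -0.18 and -0.19.

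Hexokinases trap glucose in the cell by phosphorylation, and 3 of the 4 tested had a positive fitted change, with a median of 2.12 that was 0.67 without ATO 2. Hk2, the form of muscle and fat, had FPKM values of 5.09 and 9.78 in Ctl, 14.9 in ATO 1 and 71.3 in ATO 2. The fitted log2 change was 2.91 (SE 1.00, edgeR adjusted p 0.570 and DESeq2 adjusted p 0.0570). Hk1, the form of most tissues, had -0.37 (SE 0.61). The FPKM of Hk2 was below that of Hk1 in Ctl, with ratios of 0.480 and 0.323, and above it in ATO, with ratios of 1.07 and 5.84.

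The genes with the profile most like that of Slc2a4 over the 4 sarcomas, by the root mean square difference of log2(CPM + 1) after centring each gene, were Lep (0.254), Timp4 (0.360), Cd36 (0.390), Amy1 (0.407) and Acacb (0.411). Lep encodes the hormone leptin, is also among the adipocyte markers above, and had 0 counts in both Ctl sarcomas, 377 in ATO 1 and 694 in ATO 2. Cd36, a fatty acid transporter, had FPKM values of 8.39 and 6.23 in Ctl against 134.7 and 376.4 in ATO. Acacb, an acetyl-CoA carboxylase, had 0.83 and 1.79 in Ctl against 33.4 and 80.8 in ATO. The reads of Amy1 may be shared with other amylase genes, and its value is uncertain. Adding 1 to the CPM understates changes of genes near 0, and Lep and Timp4 (3 and 2 counts in Ctl) were near 0 in Ctl. The fitted log2 change of Lep was 12.4, against 5.80 for Slc2a4, so that their nearness depends on this scale. With 4 sarcomas such likeness is a description.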

How the data were processed

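RNA-seq of 4 sarcomas was analysed, grouped as ATO or Ctl by their sample titles. Per the submitters' processing notes, Cutadapt 1.9.1 and HISAT2 2.0.1 were used with GRCm38, and the authors aligned the reads and made raw counts per gene with HTSeq, deposited without normalization. The deposited FPKM equalled the count divided by exonic gene size and total count, to within 0.005. Of 52073 genes shared with GENCODE M21 only 1472 (2.83%) had the same position in the table, so positions were taken from GENCODE M21 by gene identifier.

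Testing used R 4.3.3 and edgeR 4.0.16, with its default filter on low counts, TMM factors between 0.822 (ATO 2) and 1.11 (Ctl 2), the quasi-likelihood F-test and Benjamini-Hochberg adjustment over 17188 genes. The SE of a log2 fold change was its size divided by the square root of F. Where groups do not overlap, this means that both ATO values lie on 1 side of both Ctl values. With 2 sarcomas per group an exact permutation test cannot go below 0.333. Alternatives used DESeq2 1.42.0, its size factors, total counts, other filters, a replicate block, no mitochondrial genes, each sarcoma left out, and limma 3.58.1 on log2 FPKM with a pseudocount of 1 or 0.1. Counts of non-overlapping members with each sarcoma left out were added after seeing the data. The members, the 6 pathway lists and the 9 marker lists were chosen with earlier results of these data known. Named in the text are all members, up to 2 genes with the largest fitted change in each direction of each list, the 5 genes nearest to Slc2a4, and a few further genes (Tbc1d1, Igf1r, Arrdc4, Mlxip, Slc2a2, Slc2a5 and Slc2a7) chosen after their values were seen. A gene that the rule names is not reported here. The methods were also run on simulated counts. The outcome is not given here, and nothing about these sarcomas is read from it. Of the marker lists, osteoblast genes had a summed FPKM of 464.9 in ATO 1 and at most 12.7 elsewhere, leukocyte genes 120.0 to 291.5, and hepatocyte genes at most 0.68. Figures were drawn in Python 3.11.15 with pandas 2.3.3, numpy 2.4.6 and matplotlib 3.10.9.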

Additional observations from a re-analysis of the deposited data

How the results depend on the processing

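Past the threshold lay 0 genes in the main edgeR comparison and in 11 of 13 alternatives, each left-out sarcoma included, where the lone sarcoma of a group is assumed to vary like the others. It was 753 in DESeq2 (594 higher, 159 lower) and 541 in edgeR without a filter (454 higher, 87 lower), and the cause was not tested. The median log2 fold change of all genes was -0.016 with TMM, -0.28 on total counts, and -0.18 and -0.27 in limma on log2(FPKM + 1) and log2(FPKM + 0.1).

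Of the values of single members under the alternatives, 111 of 129 stayed within 1 SD between sarcomas of a group, 15 moved further and 3 reversed. That SD was each gene's own, so that the most variable genes stayed within it most easily, and the count does not measure stability. Slc2a1 stayed within its SD of 1.66 while going from -1.58 to -0.038 without Ctl 2. Slc2a8 left its SD of 0.205 by going from 0.51 to 0.25 on total counts. Slc2a3 was -0.83 and became 0.24 with the replicate block, and with each sarcoma left out it ranged from -1.76 to 2.57. Irs1 ranged from -0.19 to 3.60 in the same way. The median over the members was 1.11, 0.91 on total counts, 1.33 with the replicate block, 0.63 in limma on log2(FPKM + 1), 0.98 on log2(FPKM + 0.1), and between 0.60 and 1.43 with each sarcoma left out. The number of members above both Ctl sarcomas was 7, 5 by FPKM, and 7 to 8 with each sarcoma left out, when 33.2% to 36.8% of all genes did so. The number below was 0, and 0 to 2 with each sarcoma left out, with 2 without Ctl 1 (35.3% of all genes) and 1 without ATO 2 (34.5%). Leaving a sarcoma out can only keep or raise these numbers, since groups apart over 4 sarcomas stay apart over fewer. They therefore do not show how far the result depends on single sarcomas.

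The median of the relay list was 0.10, but -0.13 on total counts, -0.16 and -0.20 in limma with a pseudocount of 1 and 0.1, and from -0.30 to 0.28 with each sarcoma left out. That of the inhibitors was -0.24, but -0.51 on total counts, -0.45 and -0.47 in limma with a pseudocount of 1 and 0.1, and from -0.23 to 0.11 with each sarcoma left out. That of the vesicle genes was 0.11, but -0.096 on total counts and -0.18 in limma with either pseudocount. Total counts and FPKM also lower the median of all genes, as given above, so that a lower median is not particular to the relay and vesicle lists. Single genes need not follow, as Slc2a3 went from -0.83 to -0.185 in limma on log2(FPKM + 1). The cause of the change of sign was not tested. The replicate numbers are shared between groups, but no label says that they pair mice, and the correlation of same-numbered deviations was 5.0e-05. With the replicate block 0 genes passed.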
